A study of Arabidopsis thaliana with 21 samples.

Results

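Imbibition in water from 6 to 16 h was followed by RNA sequencing of wild-type Arabidopsis thaliana seeds. The comparison set the 3 libraries labelled water 16 h against the 3 labelled water 6 h, chosen by their sample titles, which makes 6 of the 21 libraries of the series. The other 15 libraries were dry seeds, water at 24 h, and ethylene at 6, 16 and 24 h, with 3 libraries in each group. The tissue was seed and the genotype wild type in every group, the labels placed them under long days, and the treatment label of the water samples stated no treatment. The sources used here give no ecotype, seed age or dormancy state. Replicates are called biological in the design text without a statement of separate seed lots, and p-values therefore measure only the spread between these libraries, which may be technical.

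A dry Arabidopsis seed carries RNA stored during maturation on the mother plant, together with storage proteins, oil bodies and protective proteins. On taking up water it first swells and restarts respiration and translation, then passes a plateau of water uptake before the root breaks through the endosperm and seed coat. Abscisic acid holds the seed in the maturation state, gibberellin opposes it, and a dormant seed can stay imbibed without germinating while its transcripts go on changing.

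The 6 libraries held 13646486 to 22109880 reads, the shallowest being water 6 h replicate 1, and 95.9 to 96.4% of the reads were counted on genes. The top 10 genes by abundance held 12.8 to 14.7% of reads on genes at 16 h and 9.12 to 9.35% at 6 h. Levels are given as CPM, the read count of a gene per 1e6 reads of its library, scaled across the 12 dry and water libraries. Scaling factors were 0.565 to 0.596 in dry libraries, 1.17 to 1.19 at 6 h and 1.19 to 1.24 at 16 h. The order of dry against imbibed seeds can therefore depend on scaling where levels are close. Differences are log2 fold changes of 16 h over 6 h. Their standard error (SE) was approximated as their size over the square root of the F statistic of the test. Replicates correlated across genes at 0.993 to 0.995 in log2 CPM. The samples were bulk RNA from seeds, so fewer cells of a type and less RNA per cell cannot be told apart.

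Most measured genes moved between 6 and 16 h. Of 17782 genes tested, 14163 (79.6%) had a Benjamini-Hochberg adjusted p under 0.05 by the quasi-likelihood test of edgeR, and this threshold is the one meant by rose and fell here. The higher genes numbered 7258 (40.8%) and the lower genes 6905 (38.8%). Changes of at least 2-fold were found for 3534 higher genes (19.9%) and 2637 lower genes (14.8%), and changes of at least 16-fold for 265 (1.49%) and 152 (0.855%). The 2 groups of libraries did not overlap for 7454 genes with higher levels at 16 h (41.9%) and 7096 with lower levels (39.9%). The median log2 fold change of all genes tested was 0.03. Upper quartile scaling in place of TMM scaling moved that median by 0.14 and gave 8284 higher and 5921 lower genes, so that 58.3% of the calls were higher against 51.2%. At such background rates a single call says little about a gene list, and lists are described by their counts, sizes and medians. A list with members moving both ways at near these shares does not differ in that from all genes tested.

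Heat shock genes lay lowest of the gene lists at 16 h, and the lists for DNA replication and photosynthesis had high medians. Of 31 lists, 15 had a median log2 fold change above 0. The list medians ran down to -5.81 for the heat shock list, followed by -1.45 for the low-oxygen list and -0.82 for the circadian clock. Among lists with at least 10 tested members the highest medians were 1.94 for DNA replication and the cell cycle and 1.53 for photosynthesis and chlorophyll synthesis. Next came 0.86 for 15 tested cytosolic ribosomal protein genes, from a list matched by product name. Of the smaller lists, endosperm markers had the highest median of all 31, 2.17 from 3 tested genes, and raffinose family sugars had 1.52 from 9.

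**Figure D1:**
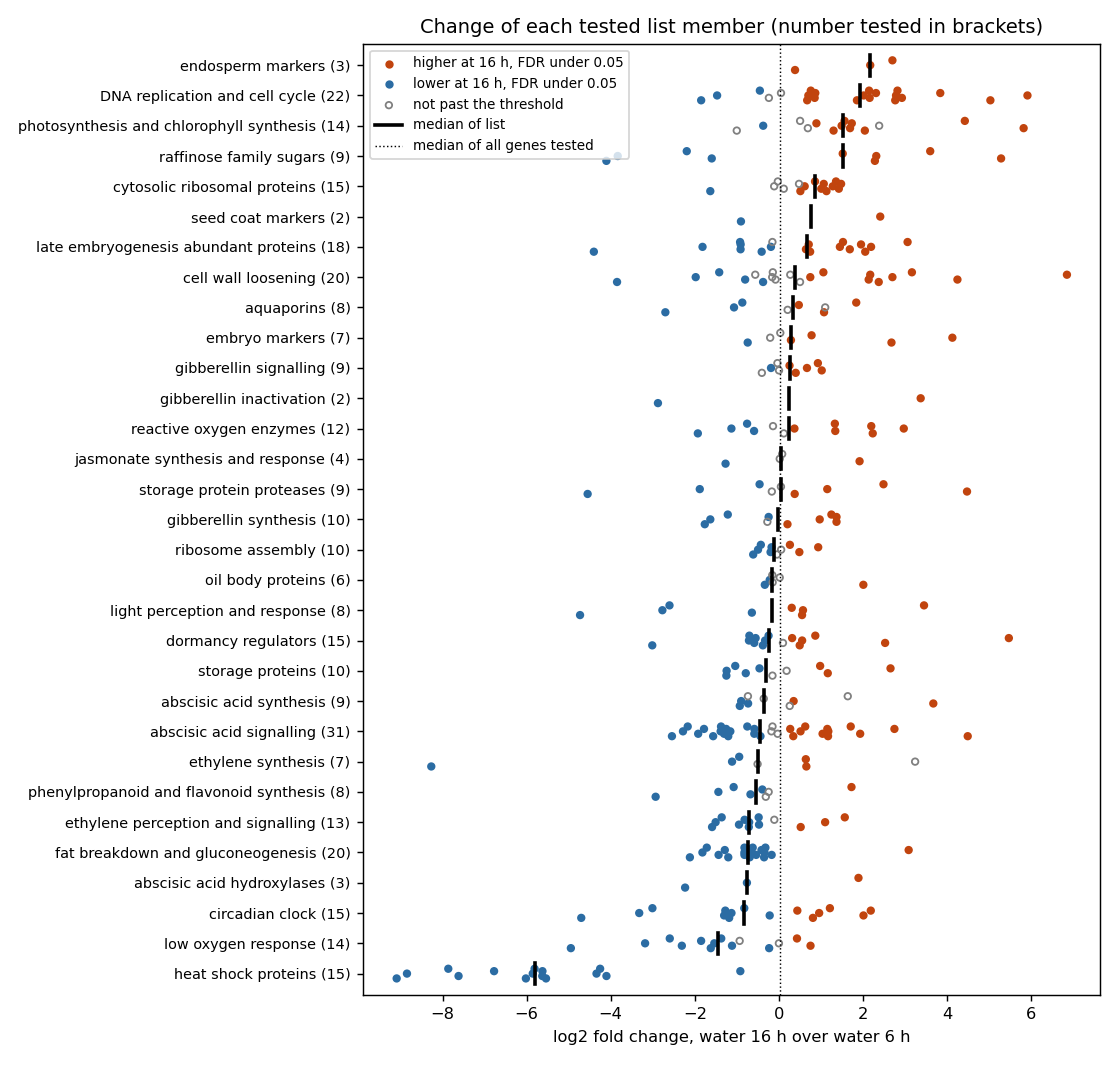
Log2 fold change of water 16 h over water 6 h (x axis) for each tested member of 31 gene lists (down the page, ordered by median, number of tested members in brackets). Filled points passed an adjusted p of 0.05, open points did not, thick bars are list medians and the dotted line is the median of all genes tested at 0.03. The heat shock list lies apart on the left with a median of -5.81, while most other lists hold members on both sides of the line.

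The heat shock response makes chaperones that keep other proteins folded. Small heat shock proteins hold unfolding proteins, HSP70 and HSP90 proteins refold them, HSP101 pulls proteins out of aggregates, and heat shock factors bind the promoters of these genes. Maturing seeds make several of them without heat, and HSFA9 is the factor known for that programme. The upstream sequences of a pair of small heat shock genes and of the factor gene HSFA2 are shown because they carry a heat shock element. The element was searched as the units GAA, TTC and GAA with NN between neighbours, N being any base, on both strands, from 250 bases before to 50 bases after the annotated start. The 250 bases before the start are printed, from the RefSeq assembly TAIR10.1, on the gene's strand, with the match in capitals.
HSP17.4 (AT3G46230, chr3:16984868-16985117, minus strand): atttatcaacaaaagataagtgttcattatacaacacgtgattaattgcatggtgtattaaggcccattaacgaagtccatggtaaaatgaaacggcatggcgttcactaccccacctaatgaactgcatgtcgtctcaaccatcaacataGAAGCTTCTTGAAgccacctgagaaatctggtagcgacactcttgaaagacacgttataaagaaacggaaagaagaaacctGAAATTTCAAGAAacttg
AT1G53540 (a small heat shock protein gene, chr1:19980049-19980298, plus strand): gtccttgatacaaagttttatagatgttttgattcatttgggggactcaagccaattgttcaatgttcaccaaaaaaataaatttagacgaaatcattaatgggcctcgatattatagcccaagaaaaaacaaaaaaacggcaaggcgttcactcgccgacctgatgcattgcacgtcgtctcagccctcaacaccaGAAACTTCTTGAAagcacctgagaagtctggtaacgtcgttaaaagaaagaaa
HSFA2 (AT2G26150, chr2:11135374-11135623, plus strand): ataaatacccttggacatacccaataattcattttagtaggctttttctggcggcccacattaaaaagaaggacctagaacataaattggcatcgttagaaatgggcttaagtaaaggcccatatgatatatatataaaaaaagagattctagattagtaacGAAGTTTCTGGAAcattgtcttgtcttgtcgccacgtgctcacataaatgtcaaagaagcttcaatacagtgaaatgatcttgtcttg
The match began 99 and 18 bases before the start in HSP17.4, 53 bases before it in AT1G53540 and 88 bases before it in HSFA2, and in HSP70 it lay 20 bases past the start.

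Every one of the 15 members of the heat shock list was tested and fell, 14 of them at least 2-fold, where 38.8% of all genes tested fell and 14.8% fell at least 2-fold. Their summed level was 343.5 to 410.2 CPM in the 16 h libraries, against 23638 to 25728 CPM in the 6 h libraries, and it had been 23771 to 25644 CPM in dry seeds. HSP70 stood at 65.95, 70.8 and 73.7 CPM at 16 h against 8013, 7434 and 7623 CPM at 6 h (log2 fold change -6.78 ± 0.09 SE; edgeR quasi-likelihood test, Benjamini-Hochberg adjusted p = 3.54e-28). Every 16 h library lay far below every 6 h library for this gene. HSP17.4, a cytosolic small heat shock protein, stood at 86.7, 96.5 and 100.3 CPM at 16 h against 6503, 5713 and 6175 CPM at 6 h (log2 fold change -6.02 ± 0.10 SE). HSP21, the chloroplast small heat shock protein, gave 0.0846, 0.089 and 0.0791 CPM at 16 h against 52.96, 48.1 and 47.9 CPM at 6 h and had the largest fitted fall of the genes tested (log2 fold change -9.09 ± 0.17 SE). The 16 h libraries lay below the 6 h libraries for all 15 genes, as they did for 39.9% of all genes tested.

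The chaperones of other compartments fell as well. HSP23.6, a mitochondrial small heat shock protein, stood at 5.88, 6.01 and 7.63 CPM at 16 h against 1338, 1238 and 1285 CPM at 6 h, and the endomembrane protein HSP22 at 5.03, 5.79 and 7.91 CPM at 16 h against 316, 305 and 309.6 CPM at 6 h. HSP17.6II, of the second cytosolic class, stood at 0.296, 0.445 and 0.712 CPM at 16 h against 241, 216 and 230.4 CPM at 6 h. Their log2 fold changes were -7.62, -5.63 and -8.85. HSP90.1, the heat-induced HSP90, stood at 48.1, 52.6 and 56.2 CPM at 16 h against 2679, 2575 and 2516 CPM at 6 h (log2 fold change -5.63 ± 0.08 SE), and the disaggregase HSP101 at 30.5, 32.7 and 35.1 CPM at 16 h against 656, 621 and 598 CPM at 6 h (log2 fold change -4.25 ± 0.08 SE). Among the factors, HSFA2 was at 2.115, 2.98 and 2.61 CPM at 16 h against 52.9, 53.8 and 49.5 CPM at 6 h (log2 fold change -4.34 ± 0.10 SE). HSFA9 changed least of the list, at 13.2, 13.3 and 15.4 CPM at 16 h against 26.8, 25.2 and 27.4 CPM at 6 h (log2 fold change -0.92 ± 0.09 SE), after most of its drop had come before 6 h, with 561 CPM in dry seeds.

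The list members did not share one course before 6 h. Mean levels of HSP70 were 2454 CPM in dry seeds, 7690.1 at 6 h, 70.2 at 16 h and 74.4 at 24 h. For HSP17.4 they were 8429.8, 6130.2, 94.5 and 34.2 CPM in the same order. AT5G51440, named a HSP20-like chaperone, went through 26.98, 210.4, 3.61 and 3.04 CPM. By these scaled levels some were highest in dry seeds and others at 6 h. For HSP17.4 that order depends on scaling, since it had 270373 reads over the dry libraries and 378109 over the 6 h libraries. The levels of all 15 were low at both 16 and 24 h.

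**Figure D2:**
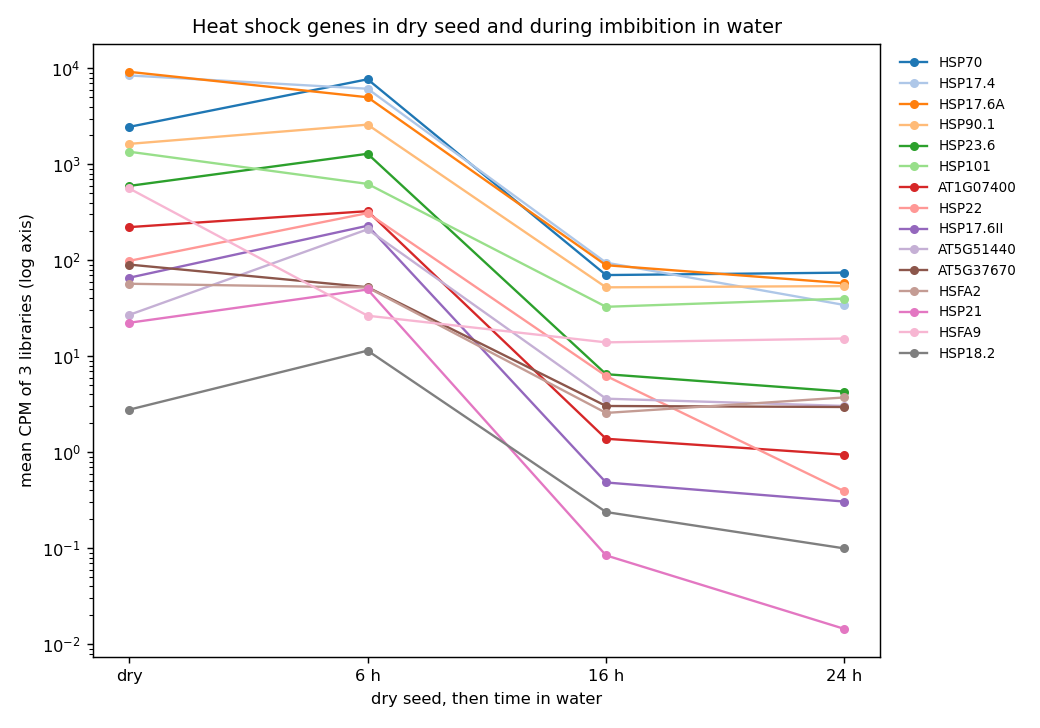
Mean CPM of 3 libraries (log axis) of the 15 heat shock list genes in dry seeds and after 6, 16 and 24 h in water, 1 line per gene. Lines are near level or move either way up to 6 h and then drop together to 16 h, by log2 fold changes of -0.92 to -9.09.

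Whole protein families, picked by their product names after values had been seen, showed that not every relative moved with the list. Of 41 genes named small heat shock or HSP20-like proteins, 30 were tested, and their log2 fold changes ran from -9.09 to 2.32 with a median of -4.20. AT2G29500 was at 3.31 CPM at 16 h against 1232 CPM at 6 h, whereas AT1G54850 was at 12.2 against 2.47 CPM. For 14 tested HSP70 genes the range was -6.78 to 0.34 and the median -2.31. The heat-induced cytosolic gene Hsp70b stood at 39.01, 41.7 and 41.8 CPM at 16 h against 4523, 4252 and 4184 CPM at 6 h, while BIP1, the endoplasmic reticulum HSP70, averaged 237 CPM at 16 h and 187 CPM at 6 h. Close copies in these families share reads, so the split between neighbours of a family is uncertain.

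The heat shock element was present in 3 of the 15 promoters of the heat shock list (20%) and in 0.481% of 27443 protein-coding promoters. Of 145 promoters of genes that fell at least 16-fold it was in 8 (5.52%), and of 255 of genes that rose at least 16-fold in 1 (0.392%). Those 8 included the heat shock genes HSP17.4, HSP70, HSFA2, AT1G53540 and AT3G09440, so this share is not separate from that of the heat shock families. At the 2-fold cut it was in 1.47% for genes that fell and 0.6% for genes that rose, against 0.605% for all genes tested. A shorter form, GAANNTTC or TTCNNGAA, which lies inside the longer element and is therefore present wherever that is, was in 9 of the 15 (60%) and in 19.3% of all promoters. A match describes letters only, and no match says only that these letters were not in this window.

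Other genes with the largest falls included stress and hormone genes. PMZ, a zinc finger gene of the AN1 type, stood at 0.719, 1.07 and 1.19 CPM at 16 h against 131, 127 and 127 CPM at 6 h (log2 fold change -7.00 ± 0.14 SE), and SRO3, a relative of the stress regulator RCD1, at 0.169, 0.134 and 0.119 CPM at 16 h against 8.33, 7.55 and 7.55 CPM at 6 h (log2 fold change -5.73 ± 0.28 SE). AATP1, an AAA-type ATPase, was at 0.677, 0.668 and 0.593 CPM at 16 h against 46.6, 41.9 and 52.97 CPM at 6 h, and ABCB4, an auxin transporter known from roots, at 4.23, 4.72 and 4.31 CPM at 16 h against 194, 186 and 194 CPM at 6 h. Both fell, with log2 fold changes of -6.18 and -5.43. PYL12, an abscisic acid receptor gene, had no read in any 16 h library, against 0.52, 0.451 and 0.667 CPM at 6 h, and was at least 13-fold lower, taking a floor of 3 counts over the group. It had stood at 72.9 CPM in dry seeds.

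Genes of the low-oxygen response, which run fermentation when respiration is short of oxygen, were mostly lower at 16 h. Of 14 tested, 10 fell, 9 of them at least 2-fold, and 2 rose. HB1, a haemoglobin that scavenges nitric oxide, stood at 1.06, 1.02 and 1.11 CPM at 16 h against 32.3, 33.7 and 33.2 CPM at 6 h (log2 fold change -4.95 ± 0.14 SE; edgeR quasi-likelihood test, Benjamini-Hochberg adjusted p = 4.06e-21). No 16 h library came near a 6 h library for HB1, which had been at 0.502 CPM in dry seeds. ADH1, alcohol dehydrogenase, stood at 31.7, 37.7 and 39.6 CPM at 16 h against 235, 215 and 209.8 CPM at 6 h, and pyruvate decarboxylase PDC1 at 7.78, 8.01 and 8.11 CPM at 16 h against 28.4, 27.6 and 30.3 CPM at 6 h. LBD41, a low-oxygen marker, was at 6.47, 6.41 and 5.62 CPM at 16 h against 33.3, 29.7 and 28.9 CPM at 6 h. Their log2 fold changes were -2.60, -1.85 and -2.31. The members that rose, RAP2.2 and RAP2.3, encode transcription factors whose protein stability is set by oxygen (0.43 and 0.75).

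The circadian clock list moved in both directions, with 6 of 15 members higher and 9 lower. Among all genes tested 40.8% rose and 38.8% fell. The clock is a loop of repressors that are transcribed at different times of day. PRR9, a morning repressor, stood at 0.127, 0.134 and 0.198 CPM at 16 h against 4.03, 4.02 and 4.44 CPM at 6 h (log2 fold change -4.70 ± 0.26 SE), and ELF4, of the evening complex, at 6.60, 5.56 and 5.66 CPM at 16 h against 46.2, 49.1 and 48.1 CPM at 6 h (log2 fold change -3.01 ± 0.08 SE). LNK1, a coactivator, fell by 3.32 on the log2 scale, whereas its relative LNK2 rose by 0.81. RVE8, an activator of evening genes, was at 51.6, 56.2 and 56.6 CPM at 16 h against 12.8, 13.7 and 14.1 CPM at 6 h (log2 fold change 2.01 ± 0.07 SE), and PRR5 at 1.23, 1.87 and 1.58 CPM at 16 h against 0.195, 0.205 and 0.578 CPM at 6 h (log2 fold change 2.19 ± 0.38 SE), which was 2.91 without water 6 h replicate 3. LHY and CCA1, close relatives that act together, differed in direction. LHY stood at 22.2, 23.99 and 22.5 CPM at 16 h against 12.04, 12.2 and 11.2 CPM at 6 h (log2 fold change 0.96 ± 0.10 SE) and CCA1 at 8.97, 8.46 and 8.31 CPM at 16 h against 19.3, 17.81 and 19.3 CPM at 6 h (log2 fold change -1.13 ± 0.09 SE). The sources used here do not give the hour of day at which each group was collected, so time in water and time of day cannot be told apart. The letters ACGTG were in 14 of the 15 clock promoters, against 26.7% of all promoters, and the evening element AAAATATCT in 4, against 2.82%.

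Genes that turn stored oil into sugar had mostly lower levels at 16 h, by modest folds. Of 20 members of the fat breakdown and gluconeogenesis list 19 fell, 6 of them at least 2-fold, and the median was -0.74. SDP1, the lipase that opens oil bodies, stood at 69.5, 62.3 and 60.99 CPM at 16 h against 209, 209 and 215 CPM at 6 h (log2 fold change -1.72 ± 0.05 SE). ACX2, an acyl-CoA oxidase of beta-oxidation, stood at 186, 175 and 162 CPM at 16 h against 744, 750.1 and 774 CPM at 6 h (log2 fold change -2.12 ± 0.06 SE), and the thiolase PED1 at 1161, 1088 and 1048 CPM at 16 h against 2516, 2457 and 2628 CPM at 6 h (log2 fold change -1.20 ± 0.07 SE). The groups stood well apart for all of these. In the glyoxylate cycle, isocitrate lyase ICL was at 12135, 11926 and 12058 CPM at 16 h against 16351, 15418 and 16370.0 CPM at 6 h (log2 fold change -0.41 ± 0.09 SE) and malate synthase MLS at 3279.7, 3227 and 3138 CPM at 16 h against 5562, 5258 and 5721 CPM at 6 h (log2 fold change -0.78 ± 0.07 SE). ICL thus had a smaller log2 fold change than SDP1, ACX2 and PED1. The rise belonged to PMDH2, a peroxisomal malate dehydrogenase (3.09), whose partner PMDH1 fell by 0.17 on the log2 scale.

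Seed maturation transcripts split, some having lower levels at 16 h than at 6 h and others higher levels. The storage protein list had 3 of 10 members higher and 5 lower, beside 40.8% and 38.8% of all genes tested. CRA1, a 12S cruciferin, stood at 42029, 46370.0 and 51679 CPM at 16 h against 7752, 7204 and 7277 CPM at 6 h (log2 fold change 2.66 ± 0.10 SE; edgeR quasi-likelihood test, Benjamini-Hochberg adjusted p = 2.23e-18). Every 16 h library lay above every 6 h library, and the mean of 46693 CPM at 16 h compares with 40609 CPM in dry seeds and 65190.0 CPM at 24 h. CRC, another cruciferin, was at 15194, 17473 and 19470.0 CPM at 16 h against 8145, 7645 and 7498 CPM at 6 h (log2 fold change 1.16 ± 0.09 SE). CRB, of the same family, was at 1011, 1046 and 1165 CPM at 16 h against 2248, 2127 and 2244 CPM at 6 h (log2 fold change -1.04 ± 0.08 SE), and the 2S albumin SESA4 at 217, 220.5 and 257 CPM at 16 h against 585, 526 and 540.1 CPM at 6 h (log2 fold change -1.25 ± 0.07 SE). Cruciferins therefore differed in direction among themselves. Of 6 tested oil body genes 1 rose and 2 fell. The oleosin gene OLEO3 stood at 28.6, 27.2 and 31.8 CPM at 16 h against 7.74, 7.06 and 7.11 CPM at 6 h (log2 fold change 2.01 ± 0.08 SE), while OLEO1 was at 2805, 3058 and 3486 CPM at 16 h against 3572, 3409 and 3385 CPM at 6 h, where the groups overlapped and the change did not pass.

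Late embryogenesis abundant (LEA) proteins protect the drying embryo, and many of their promoters hold the letters ACGTG, the core of the abscisic acid response element. Upstream sequences of EM6 and RAB28, which rose, and of RAB18, which fell, are shown because all of them hold it. Letters were searched on both strands over the same window, matches of a strand and its complement may overlap, and the bases before the start are printed with matches in capitals.
EM6 (AT2G40170, chr2:16780369-16780618, minus strand): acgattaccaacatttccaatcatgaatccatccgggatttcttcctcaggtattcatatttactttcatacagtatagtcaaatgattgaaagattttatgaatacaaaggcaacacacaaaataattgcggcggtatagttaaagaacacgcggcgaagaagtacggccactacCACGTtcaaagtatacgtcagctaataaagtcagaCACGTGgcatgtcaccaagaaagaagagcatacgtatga
RAB28 (AT1G03120, chr1:751941-752190, plus strand): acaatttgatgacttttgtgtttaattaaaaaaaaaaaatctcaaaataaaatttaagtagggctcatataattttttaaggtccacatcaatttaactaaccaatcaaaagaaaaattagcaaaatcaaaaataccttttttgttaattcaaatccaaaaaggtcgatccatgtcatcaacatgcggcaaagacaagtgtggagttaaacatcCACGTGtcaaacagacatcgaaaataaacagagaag
RAB18 (AT5G66400, chr5:26519448-26519697, minus strand): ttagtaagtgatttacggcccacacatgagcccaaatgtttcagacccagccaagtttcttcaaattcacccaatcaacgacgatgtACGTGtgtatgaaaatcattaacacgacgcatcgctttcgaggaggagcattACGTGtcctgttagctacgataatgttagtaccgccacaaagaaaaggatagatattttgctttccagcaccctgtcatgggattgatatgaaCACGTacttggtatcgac
ACGTG was in 14 of the 18 LEA promoters (77.8%), against 26.7% of all promoters, and it was found in members that rose and in members that fell.

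Of 18 LEA genes 10 rose, 7 of them at least 2-fold, and 7 fell, 2 of them at least 2-fold. RAB28 stood at 33.8, 35.3 and 38.4 CPM at 16 h against 4.42, 3.86 and 4.67 CPM at 6 h (log2 fold change 3.06 ± 0.10 SE), LEA18 at 1285, 1437 and 1572 CPM at 16 h against 365, 319 and 351 CPM at 6 h (log2 fold change 2.05 ± 0.08 SE) and EM6 at 1636, 1803 and 2129 CPM at 16 h against 1196, 1200.2 and 1169 CPM at 6 h (log2 fold change 0.64 ± 0.08 SE). In each case the 16 h libraries lay above the 6 h libraries and below the mean of dry seeds, which was 197, 4612 and 22342 CPM. The dehydrin LTI30, known from cold and drought, was at 4.48, 6.41 and 6.92 CPM at 16 h against 134, 126 and 119 CPM at 6 h (log2 fold change -4.40 ± 0.10 SE), after 2036 CPM in dry seeds. RAB18, a dehydrin induced by abscisic acid, was at 52.5, 54.5 and 57.9 CPM at 16 h against 127, 139.7 and 135 CPM at 6 h (log2 fold change -1.29 ± 0.06 SE).

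Abscisic acid genes did not move one way. NCED6, a rate-limiting dioxygenase of abscisic acid synthesis known from endosperm, stood at 3.64, 3.12 and 3.32 CPM at 16 h against 0.26, 0.123 and 0.4 CPM at 6 h (log2 fold change 3.67 ± 0.29 SE), and NCED9, its relative, at 8.12, 8.54 and 7.79 CPM at 16 h against 15.9, 14.9 and 14.9 CPM at 6 h (log2 fold change -0.90 ± 0.10 SE). The groups did not overlap for either. CYP707A2, the hydroxylase that degrades abscisic acid early in imbibition, was at 27.8, 28.6 and 27.1 CPM at 16 h against 143, 131 and 118 CPM at 6 h (log2 fold change -2.23 ± 0.06 SE; edgeR quasi-likelihood test, Benjamini-Hochberg adjusted p = 1.9e-21). Dry seeds were at 41.7 CPM after scaling, but had 1338 reads over the group against 1982 at 16 h. Whether CYP707A2 lay above or below dry seeds at 16 h thus depends on scaling. CYP707A1, of the same family, rose (1.89) at a low level, 1.09 CPM at 16 h against 0.29 CPM at 6 h.

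Abscisic acid signalling had 12 of 31 genes higher and 16 lower, where the shares of all genes tested were 40.8% and 38.8%. Of the 9 receptor genes of the list, whose products bind the hormone, 8 fell. PYL6, PYL1, PYL8, PYL2, PYL4 and PYL5 all fell at least 2-fold (-2.54, -2.28, -1.56, -1.25, -1.20 and -1.16), and PYL9 did not pass. The phosphatases that the receptors inhibit were mixed, with ABI1 at 21.7, 20.3 and 19.9 CPM at 16 h against 88.2, 96.6 and 93.1 CPM at 6 h (log2 fold change -2.17 ± 0.06 SE) and HAB1 at 30.6, 31.4 and 33.3 CPM at 16 h against 13.1, 14.7 and 14.8 CPM at 6 h (log2 fold change 1.15 ± 0.07 SE). The kinase gene SNRK2.3 was at 117, 122 and 113 CPM at 16 h against 443, 447 and 444 CPM at 6 h (log2 fold change -1.92 ± 0.05 SE). Of 10 transcription factor genes at the end of the pathway 8 rose and 1 fell. EEL, a bZIP factor of maturing seeds, stood at 100.2, 110.1 and 122 CPM at 16 h against 18.3, 16.3 and 15.2 CPM at 6 h (log2 fold change 2.75 ± 0.08 SE), and ABF4 at 41.2, 46.01 and 50.3 CPM at 16 h against 12.2, 11.9 and 11.998 CPM at 6 h (log2 fold change 1.93 ± 0.08 SE). ABI5, the bZIP factor that arrests growth after germination, was at 172, 188 and 185 CPM at 16 h against 115, 115 and 124 CPM at 6 h (log2 fold change 0.63 ± 0.06 SE), and ABI3, a master regulator of maturation, at 391, 396 and 391 CPM at 16 h against 306, 305 and 317 CPM at 6 h (log2 fold change 0.34 ± 0.05 SE). ABI4 went the other way, at 26.4, 23.496 and 22.7 CPM at 16 h against 89.98, 83.4 and 76.7 CPM at 6 h (log2 fold change -1.78 ± 0.07 SE).

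Dormancy regulators changed in both directions. DOG1, which sets the depth of dormancy, stood at 0.338, 0.49 and 0.475 CPM at 16 h against 3.58, 3.61 and 3.47 CPM at 6 h (log2 fold change -3.01 ± 0.21 SE), after 99.5 CPM in dry seeds, so that most of its drop had come before 6 h. AT4G18690, whose product is named a delay of germination protein, stood at 44.97, 50.5 and 53.04 CPM at 16 h against 1.301, 0.534 and 1.60 CPM at 6 h (log2 fold change 5.47 ± 0.14 SE; edgeR quasi-likelihood test, Benjamini-Hochberg adjusted p = 1.99e-22). The lowest 16 h library lay above the highest 6 h library by a wide margin. MFT, a regulator that responds to both abscisic acid and gibberellin in seeds, was at 56.3, 60.3 and 69.7 CPM at 16 h against 11.2, 9.73 and 11.6 CPM at 6 h (log2 fold change 2.53 ± 0.09 SE), and SOM, a repressor of germination in the dark, at 695, 691 and 718 CPM at 16 h against 463, 463 and 509 CPM at 6 h (log2 fold change 0.55 ± 0.06 SE). Of the 15 regulators tested, 6 rose and 8 fell, while 40.8% of all genes tested rose and 38.8% fell.

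Gibberellin genes gave 5 higher and 4 lower of 10 for synthesis, with a median of -0.02 that turned to 0.12 under upper quartile scaling. These counts stand beside 40.8% higher and 38.8% lower among all genes tested. Both tested genes for the last step, which makes the active hormone, fell. GA3OX1 stood at 2.45, 1.82 and 1.58 CPM at 16 h against 6.31, 6.16 and 5.73 CPM at 6 h (log2 fold change -1.63 ± 0.18 SE) and GA3OX2 at 0.296, 0.223 and 0.316 CPM at 16 h against 1.63, 0.575 and 0.889 CPM at 6 h (log2 fold change -1.76 ± 0.42 SE). The preceding enzyme GA20OX3 was higher, at 449, 464 and 460.5 CPM at 16 h against 176, 192 and 209 CPM at 6 h (log2 fold change 1.25 ± 0.06 SE). GA2OX2, which inactivates gibberellin, stood at 16.3, 14.02 and 14.6 CPM at 16 h against 2.15, 1.11 and 1.29 CPM at 6 h (log2 fold change 3.37 ± 0.15 SE). GA2OX6, the other tested gene of this kind, fell, with 1 read in all at 16 h and 9 at 6 h. That made GA2OX6 10.3-fold lower (counting interval 1.43 to 452). Of the DELLA repressors, RGL2, the main one in seeds, was at 235, 223 and 227 CPM at 16 h against 115, 122 and 123 CPM at 6 h (log2 fold change 0.93 ± 0.05 SE), and GAI, RGA1 and RGL3 rose as well (0.67, 0.40 and 1.02), while RGL1 did not pass.

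Ethylene perception and signalling genes in these untreated seeds were mostly lower. Of 13 tested perception and signalling genes 9 fell and 3 rose, among them the receptor genes EIN4, at 24.9, 24.03 and 21.04 CPM at 16 h against 70.9, 70.6 and 69.1 CPM at 6 h, and ETR2, at 14.5, 13.5 and 12.4 CPM at 16 h against 35.4, 35.1 and 33.2 CPM at 6 h. Both fell by more than 2-fold (-1.59 and -1.36), and the receptor gene ERS2 rose (1.57). Of 7 tested ethylene synthesis genes 3 fell and 2 rose, and the list summed to a mean of 17.07 CPM at 16 h and 16.69 CPM at 6 h. ACS4, an enzyme making the ethylene precursor, had no read at 16 h, against 2.15, 2.34 and 1.64 CPM at 6 h, and was at least 48.6-fold lower, taking 3 counts over the group. ACO1, the oxidase of the last step, averaged 2.31 CPM at 16 h and 1.44 CPM at 6 h with overlapping groups. It passed the threshold (log2 fold change 0.65 ± 0.29 SE) but not without water 16 h replicate 1, when the log2 fold change was 0.13 (edgeR, adjusted p = 0.668).

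**Figure D3:**
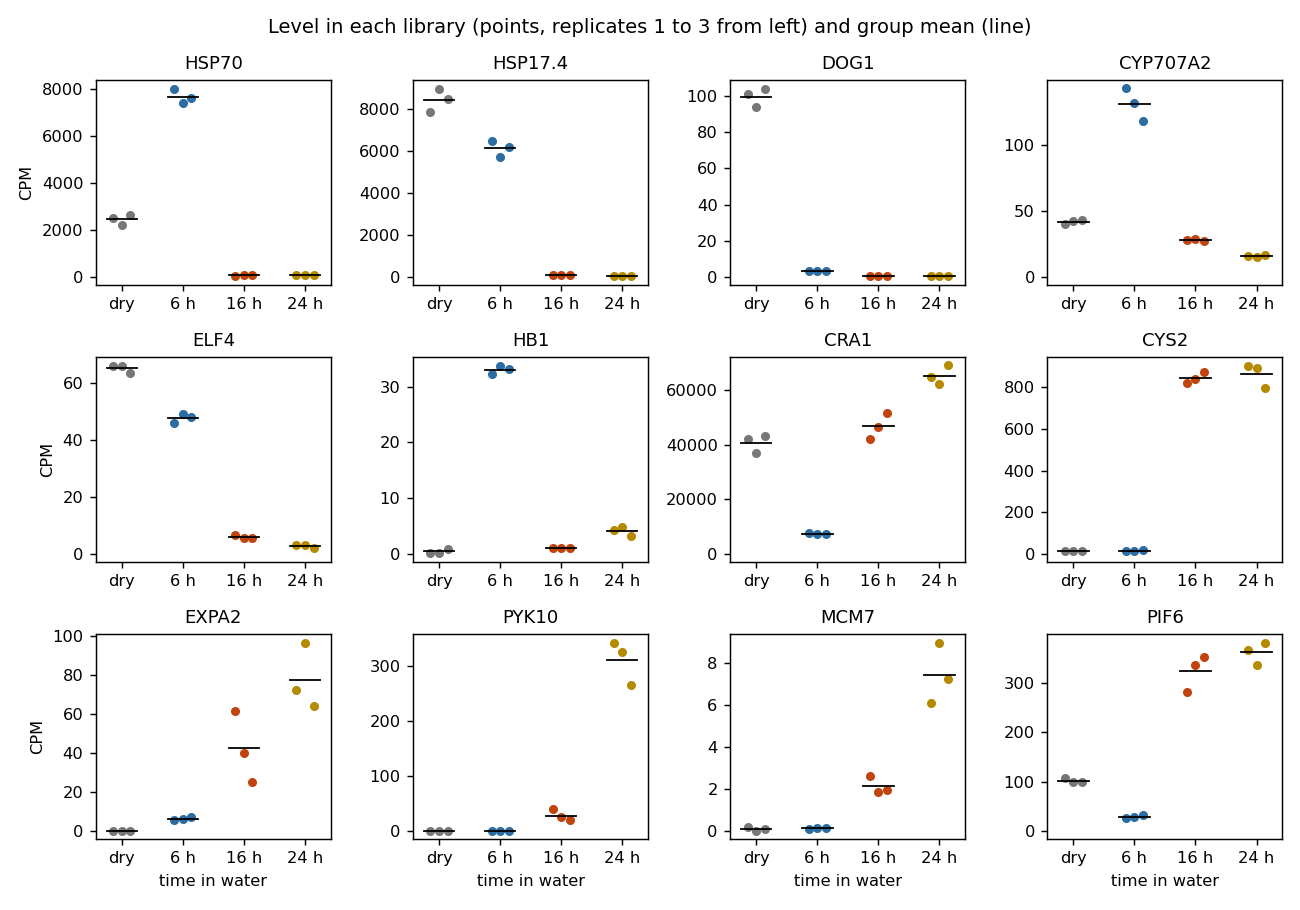
CPM of 12 genes (panels, each with its own linear axis) in each library of dry seeds and of water at 6, 16 and 24 h, points being replicates and lines group means. The 16 h and 6 h points do not overlap in any panel; HSP70, HSP17.4, DOG1, CYP707A2, ELF4 and HB1 are lower at 16 h, and CRA1, CYS2, EXPA2, PYK10, MCM7 and PIF6 are higher.

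Among the genes with the largest increases were some of wall proteins, hormones and proteases. AGP31, an arabinogalactan protein of the wall, stood at 25.04, 21.4 and 20.7 CPM at 16 h against 0, 0 and 0.0444 CPM at 6 h, that is 1 read in all at 6 h, which gave a ratio of 1393 (95% counting interval 249.7 to 55061). Without water 6 h replicate 3, which held that read, AGP31 was at least 296-fold higher. DWF1, an enzyme of brassinosteroid synthesis, stood at 226, 212 and 196 CPM at 16 h against 1.69, 1.97 and 2.09 CPM at 6 h (log2 fold change 6.76 ± 0.10 SE; edgeR quasi-likelihood test, Benjamini-Hochberg adjusted p = 2.94e-27). The groups lay far apart, with means of 211 CPM at 16 h and 1.92 CPM at 6 h. CYS2, an inhibitor of cysteine proteases, was at 821, 839 and 874 CPM at 16 h against 13.6, 15.1 and 17.9 CPM at 6 h (log2 fold change 5.75 ± 0.08 SE). SBT1.3, a subtilisin-like protease, and LAX2, an auxin importer, were at 17.5, 14.4 and 12.5 CPM at 16 h against 0, 0.0821 and 0.0889 CPM at 6 h and at 4.57, 4.98 and 4.90 CPM at 16 h against 0.0651, 0.0821 and 0.0444 CPM at 6 h. Each had 4 reads in all at 6 h, and the ratios were 229 for SBT1.3 (counting interval 89.3 to 843) and 74.98 for LAX2 (29.02 to 277).

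Cell wall loosening genes had 9 of 20 members higher, 8 of them at least 2-fold, and 5 lower. Of all genes tested 40.8% were higher, 19.9% by at least 2-fold, and 38.8% lower. Expansins loosen the wall without cutting it, xyloglucan endotransglucosylases (XTH) cut and rejoin xyloglucan, and mannanases (MAN) degrade the mannans of the endosperm wall. EXPA2, an expansin of the endosperm, stood at 61.8, 40.2 and 25.4 CPM at 16 h against 5.73, 6.48 and 7.11 CPM at 6 h (log2 fold change 2.70 ± 0.23 SE), and EXPA9 at 36.6, 28.9 and 17.01 CPM at 16 h against 6.64, 6.28 and 5.87 CPM at 6 h (log2 fold change 2.14 ± 0.19 SE). EXPA8 was lower, at 16.03, 11.4 and 6.72 CPM at 16 h against 161, 154 and 174 CPM at 6 h (log2 fold change -3.85 ± 0.14 SE). For EXPA2 and EXPA9 the 16 h libraries spread widely, with replicate 1 highest and replicate 3 lowest, but stayed above the 6 h libraries. XTH31 was at 10.7, 5.61 and 2.81 CPM at 16 h against 0.0651, 0.041 and 0.0444 CPM at 6 h, 3 reads in all at 6 h, which gave a ratio of 131 (counting interval 44.5 to 637), and 85.6 without water 16 h replicate 1. MAN7 was at 63.8, 57.2 and 51.6 CPM at 16 h against 13.8, 12.6 and 12.04 CPM at 6 h (log2 fold change 2.17 ± 0.08 SE). EXPA2 and MAN7 are also in the list of endosperm markers.

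Genes of the endoplasmic reticulum body, a store of beta-glucosidases against herbivores in seedlings, were among the largest rises and were grouped after values had been seen. NAI2, needed to form these bodies, stood at 20.1, 15.8 and 10.9 CPM at 16 h against 0, 0.041 and 0.0444 CPM at 6 h, which was 2 reads in all at 6 h and gave a ratio of 482 (counting interval 133 to 3982). PYK10, their main beta-glucosidase, was at 40.1, 25.4 and 19.9 CPM at 16 h against 0, 0.0821 and 0.178 CPM at 6 h (log2 fold change 8.11 ± 0.43 SE). With 6 reads in all at 6 h, PYK10 had a ratio of 293.7 (95% counting interval 134.7 to 801), and of 562 without water 6 h replicate 3. The lectin gene JAL34 was at 3.38, 3.29 and 2.77 CPM at 16 h against 0, 0 and 0.0444 CPM at 6 h, where 1 read gave a ratio of 195 (counting interval 34.7 to 7747). Without water 6 h replicate 3, which held that read, JAL34 was at least 41.6-fold higher. BGLU22, a close relative of PYK10, was at 0.846, 0.134 and 0.237 CPM at 16 h and had no read at 6 h, which made it at least 8.43-fold higher, taking 3 counts over the group, but at least 3.91-fold without water 16 h replicate 1. NAI1, the transcription factor of this gene group, averaged 1.51 CPM at 16 h and 0.0285 CPM at 6 h. PYK10 went on to 310.1 CPM at 24 h, and NAI2 to 63.04 CPM. Because PYK10, BGLU21 and BGLU22 are similar in sequence, their separate values are uncertain.

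Most DNA replication genes were higher at 16 h, although the summed level of the list was lower. Before a cell divides, the MCM helicase is loaded on DNA by ORC2, CDC6 and CDT1A, and D-type cyclins release the E2F factors that switch these genes on. Upstream sequences of MCM2 and MCM6 are shown because each holds an E2F motif, searched as TTTCCCGC or TTTGGCGC on both strands and printed in capitals.
MCM2 (AT1G44900, chr1:16969964-16970213, plus strand): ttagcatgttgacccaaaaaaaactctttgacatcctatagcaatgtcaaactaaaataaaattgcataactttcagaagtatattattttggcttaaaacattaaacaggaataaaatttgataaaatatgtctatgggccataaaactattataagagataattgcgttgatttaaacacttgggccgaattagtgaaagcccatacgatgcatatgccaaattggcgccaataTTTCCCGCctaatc
MCM6 (AT5G44635, chr5:18010668-18010917, minus strand): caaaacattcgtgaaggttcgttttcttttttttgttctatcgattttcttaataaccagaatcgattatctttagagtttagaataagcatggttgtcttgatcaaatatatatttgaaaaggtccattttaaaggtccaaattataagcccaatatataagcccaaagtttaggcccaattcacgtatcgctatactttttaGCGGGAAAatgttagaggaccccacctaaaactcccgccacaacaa
The motif was in 8 of 23 promoters of the list (34.8%) and in 1.21% of all promoters.

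Of 22 tested replication and cell cycle genes 17 rose, 12 of them at least 2-fold, and 3 fell. The whole list summed to 516.7 to 540.9 CPM at 16 h, against 957.3 to 1028 CPM at 6 h, and TSO2, which fell, held most of the 6 h sum. MCM7 stood at 2.62, 1.87 and 1.98 CPM at 16 h against 0.13, 0.164 and 0.133 CPM at 6 h (log2 fold change 3.84 ± 0.37 SE), MCM2 at 6.22, 4.85 and 4.43 CPM at 16 h against 1.43, 0.903 and 1.24 CPM at 6 h (log2 fold change 2.15 ± 0.20 SE) and MCM6 at 2.37, 1.91 and 1.42 CPM at 16 h against 0.195, 0.328 and 0.267 CPM at 6 h (log2 fold change 2.77 ± 0.31 SE). The groups did not overlap for any MCM gene of the list. CDT1A was at 1.82, 1.87 and 1.58 CPM at 16 h against 0.195, 0.205 and 0.267 CPM at 6 h (log2 fold change 2.93 ± 0.32 SE), and the D-type cyclin gene CYCD4;1 at 3.17, 2.40 and 2.18 CPM at 16 h against 0.195, 0.41 and 0.444 CPM at 6 h (log2 fold change 2.79 ± 0.29 SE). CYCD3;1 had no read at 6 h and 0.296, 0.623 and 0.277 CPM at 16 h, at least 8.14-fold higher, taking 3 counts over the group. The mitotic cyclin gene CYCB1;1 fell, at 6.98, 6.90 and 7.67 CPM at 16 h against 20.04, 19.7 and 20.1 CPM at 6 h (log2 fold change -1.47 ± 0.10 SE), and so did TSO2, a subunit of ribonucleotide reductase, at 205, 194 and 201 CPM at 16 h against 703, 709.5 and 748 CPM at 6 h (log2 fold change -1.85 ± 0.06 SE). Beside these rises, the summed embryo markers had a mean of 127.2 CPM at 16 h and 147.8 CPM at 6 h. ATML1, which fell, held most of that sum at both times, and of 7 tested embryo markers 4 rose and 1 fell.

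Cytosolic ribosomal protein genes were picked by a match on product names, so members named otherwise are missing. The counts and median describe the 21 matched genes and not the family as a whole. Of 15 tested, of 21 in the list, 10 rose and 1 fell, with a median of 0.86. The acidic protein gene AT2G27720 stood at 401, 402 and 404 CPM at 16 h against 148, 146 and 156 CPM at 6 h (log2 fold change 1.43 ± 0.05 SE). The ribosome assembly list, by contrast, had 3 higher and 5 lower of 10, none by 2-fold, and its median of -0.11 turned to 0.03 under upper quartile scaling. NAP57, a pseudouridine synthase of the nucleolus, was at 600.2, 615 and 622 CPM at 16 h against 324, 306 and 331 CPM at 6 h (log2 fold change 0.94 ± 0.06 SE), and NOP56, of the methylation complex, at 334, 320.4 and 300.4 CPM at 16 h against 437, 414 and 435 CPM at 6 h (log2 fold change -0.43 ± 0.06 SE).

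Photosynthesis and chlorophyll genes rose in 9 of 14 tested, of 18 in the list, and 1 fell. RBCS1A, the small Rubisco subunit, stood at 172, 158 and 151 CPM at 16 h against 7.87, 7.22 and 7.38 CPM at 6 h (log2 fold change 4.42 ± 0.08 SE; edgeR quasi-likelihood test, Benjamini-Hochberg adjusted p = 7.92e-26). Every 16 h library lay far above the 6 h libraries. LHCB4.1, a light-harvesting protein, was at 39.9, 46.7 and 48.1 CPM at 16 h against 15.4, 15.8 and 14.4 CPM at 6 h (log2 fold change 1.56 ± 0.08 SE), after 219.6 CPM in dry seeds. PORC, which makes chlorophyllide in light, was at 1.65, 1.33 and 0.87 CPM at 16 h against 0, 0 and 0.0444 CPM at 6 h, 1 read in all at 6 h, which gave a ratio of 79.3 (counting interval 13.9 to 3168), and a bound of at least 16.9-fold without water 6 h replicate 3, which held that read. PORB rose by a log2 fold change of 1.73 but not without water 16 h replicate 1, where it was 0.76 (edgeR, adjusted p = 0.343). PIF6, a factor that binds phytochrome and acts in seed dormancy, stood at 283, 337 and 353 CPM at 16 h against 27.5, 28.3 and 32.8 CPM at 6 h (log2 fold change 3.45 ± 0.08 SE), while PIF1, the main light repressor of germination, was at 131, 134 and 134 CPM at 16 h against 157, 158 and 158 CPM at 6 h (log2 fold change -0.25 ± 0.05 SE), a fall that did not pass under upper quartile scaling. HY5 and ELIP1, both induced by light, fell (-2.60 and -4.73).

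Raffinose family sugars, which protect drying seeds and serve as early fuel, had genes moving far in both directions, with 5 of 9 tested higher and 4 lower, all by at least 2-fold. STS, the stachyose synthase, stood at 74.6, 86.2 and 99.2 CPM at 16 h against 6.96, 6.85 and 7.60 CPM at 6 h (log2 fold change 3.60 ± 0.10 SE). The genes named after seed imbibition proteins were lower, SIP1 at 15.6, 12.6 and 9.73 CPM at 16 h against 219, 218 and 212 CPM at 6 h (log2 fold change -4.10 ± 0.09 SE) and SIP2, an enzyme that degrades raffinose, at 202, 179 and 155 CPM at 16 h against 2638, 2475 and 2521 CPM at 6 h (log2 fold change -3.83 ± 0.08 SE). GOLS1, galactinol synthase, was at 123, 128 and 149 CPM at 16 h against 615, 613 and 599.8 CPM at 6 h and its relative GOLS2 at 42.8, 49.2 and 54.5 CPM at 16 h against 16.9, 19.2 and 14.98 CPM at 6 h, so that this pair moved apart (-2.19 and 1.52). Among reactive oxygen enzymes 6 of 12 rose and 4 fell. PER1, a seed peroxiredoxin, was at 1797, 1946 and 2119.8 CPM at 16 h against 424, 409 and 415 CPM at 6 h (log2 fold change 2.23 ± 0.08 SE), while the catalase gene CAT2, at 221, 217 and 210.5 CPM at 16 h against 214, 209 and 224 CPM at 6 h, did not pass. Of 8 tested water channel genes, of 11 in the list, 3 rose and 3 fell. The tonoplast genes BETA-TIP and TIP3;1, both seed forms, rose (1.84 and 0.47). Those of the plasma membrane moved both ways, as PIP1A rose (1.07) while PIP1B and PIP2B fell (-1.07 and -2.70).

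The proteases that process storage proteins also split. DELTA-VPE, a vacuolar processing enzyme of the seed coat, stood at 22.8, 19.05 and 17.601 CPM at 16 h against 1.04, 0.821 and 0.844 CPM at 6 h (log2 fold change 4.48 ± 0.18 SE), and RD19, a cysteine protease, at 12.99, 9.39 and 9.89 CPM at 16 h against 259, 243 and 255 CPM at 6 h (log2 fold change -4.55 ± 0.09 SE). BETA-VPE, the seed form of the processing enzyme, rose by 0.38 on the log2 scale. Phenylpropanoid and flavonoid genes were lower in 5 of 8 tested and higher in 1, with PAL4 at 14.7, 14.02 and 15.03 CPM at 16 h against 40.7, 39.3 and 38.9 CPM at 6 h (log2 fold change -1.44 ± 0.08 SE). Jasmonate genes had 1 of 4 tested higher, AOS (1.92), and 1 lower, JAZ1 (-1.27).

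The 16 h libraries differed among themselves, and the order of replicates varied with the list. Among all genes tested, 21.7% were highest in water 16 h replicate 1 and lowest in replicate 3, and 19.5% the other way round. Replicate 1 was highest and replicate 3 lowest for 15 of 20 cell wall genes (75%), 14 of 20 fat breakdown genes (70%) and, in the group picked after values were seen, 6 of 7 endoplasmic reticulum body genes. The reverse held for 10 of 10 storage protein genes (100%), 15 of 18 LEA genes (83.3%) and 10 of 15 heat shock genes (66.7%). Leaving out replicate 1 gave 7029 higher and 6813 lower genes, and leaving out replicate 3 gave 7112 and 6754. What sets these libraries apart was not tested.

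Lists of tissue markers showed rises in the endosperm list and mixed changes in the others. Endosperm markers summed to 8189 to 9325 CPM at 16 h, against 6234 to 6998 CPM at 6 h, nearly all of it from EPR1, and ZOU had no read at either time. Their 3 tested genes, EPR1, MAN7 and EXPA2, all rose, and MAN7 and EXPA2 are also in the cell wall list. Embryo markers summed to 122.8 to 131.3 CPM at 16 h, against 144.2 to 150.7 CPM at 6 h, most of it from ATML1. Of 7 tested embryo markers, 4 were higher and 1 lower. PDF1, of the epidermis, stood at 22.8, 19.8 and 17.44 CPM at 16 h against 3.25, 3.32 and 2.80 CPM at 6 h (log2 fold change 2.68 ± 0.12 SE), and ATML1, its regulator, at 68.5, 70.9 and 68.5 CPM at 16 h against 118, 113 and 117 CPM at 6 h (log2 fold change -0.74 ± 0.05 SE). Seed coat markers summed to 6.01 to 7.19 CPM at 16 h, against 10.9 to 11.8 CPM at 6 h. Their part in the changes of other lists was not tested.

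The change in water differed from that with ethylene for few genes with all libraries and for most genes once 1 ethylene library was left out. The change in water was set against that with ethylene in 1 fit of the 18 imbibed libraries, by the difference of the log2 changes, water minus ethylene. The library labelled ethylene 16 h replicate 2 stood apart from the others of its group and near water 16 h, for example at 57576 CPM for CRA1, where the other ethylene 16 h libraries were at 5066 and 4345 CPM, so values are given with and without it. With all libraries 86 of 18806 genes (0.457%) had an adjusted p under 0.05 for that difference (edgeR quasi-likelihood), 36 with a larger and 50 with a smaller log2 change in water, and 5450 had an unadjusted p under 0.05. Without that library 11652 genes (62%) differed.

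CRA1 changed by 2.66 in water, and with ethylene by 1.38 with that library and -0.86 without it. The difference had an adjusted p of 0.338 with all libraries (edgeR quasi-likelihood test, Benjamini-Hochberg adjustment) and was 3.53 ± 0.15 SE without the library (adjusted p = 3.71e-18). EM6 changed by 0.65 in water, and with ethylene by -0.64 with the library (edgeR, adjusted p of the difference 0.504) and -4.75 without it (difference 5.40 ± 0.16 SE). For both genes the call rested on leaving that library out.

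The gibberellin genes GA3OX1 and GA3OX2 had opposite signs under the treatments with and without the library. GA3OX2 changed by -1.74 in water, and with ethylene by 2.70 with the library and 3.25 without it (edgeR, adjusted p of the difference 0.0899 and 2.38e-11). GA3OX1 changed by -1.62 in water, and with ethylene by 1.53 with the library and 2.04 without it (edgeR, adjusted p 0.0853 and 4.41e-11). Neither difference passed with all libraries. EXPA2 changed by 2.71 in water, and with ethylene by 5.84 with the library and 6.29 without it (edgeR, adjusted p 0.0618 and 6.1e-09). CYP707A2 changed by -2.22 in water, and with ethylene by -3.15 with the library and -4.54 without it (edgeR, adjusted p 0.338 and 5.68e-13). MFT and PIF6 differed with and without the library, with adjusted p-values (edgeR) of 0.0428 and 0.0261 with it.

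Heat shock genes had strongly negative changes under both treatments. Their median was -5.80 in water, and with ethylene -6.93 with that library and -7.59 without it, and 0 of 15 and 12 of 15 members differed, where 0.457% and 62% of all genes did. HSP70 changed by -6.77 in water, and with ethylene by -7.19 with the library and -7.48 without it (edgeR, adjusted p of the difference 0.211 and 6.69e-09). The difference for HSP21 did not pass in either fit.

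Maturation lists depended on that library. LEA genes had a median of 0.69 in water, and with ethylene -0.42 with the library and -3.10 without it, and 0 of 18 and 18 of 18 members differed. Storage protein genes had a median of -0.30 in water, and with ethylene -1.53 with the library and -3.03 without it, and 0 of 10 and 10 of 10 differed. Cell wall loosening genes had a median of 0.39 in water, and with ethylene 2.68 with the library and 2.82 without it, and 0 of 20 and 17 of 20 differed. These counts stand beside the same shares of all genes, 0.457% with the library and 62% without it.

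**Figure D4:**
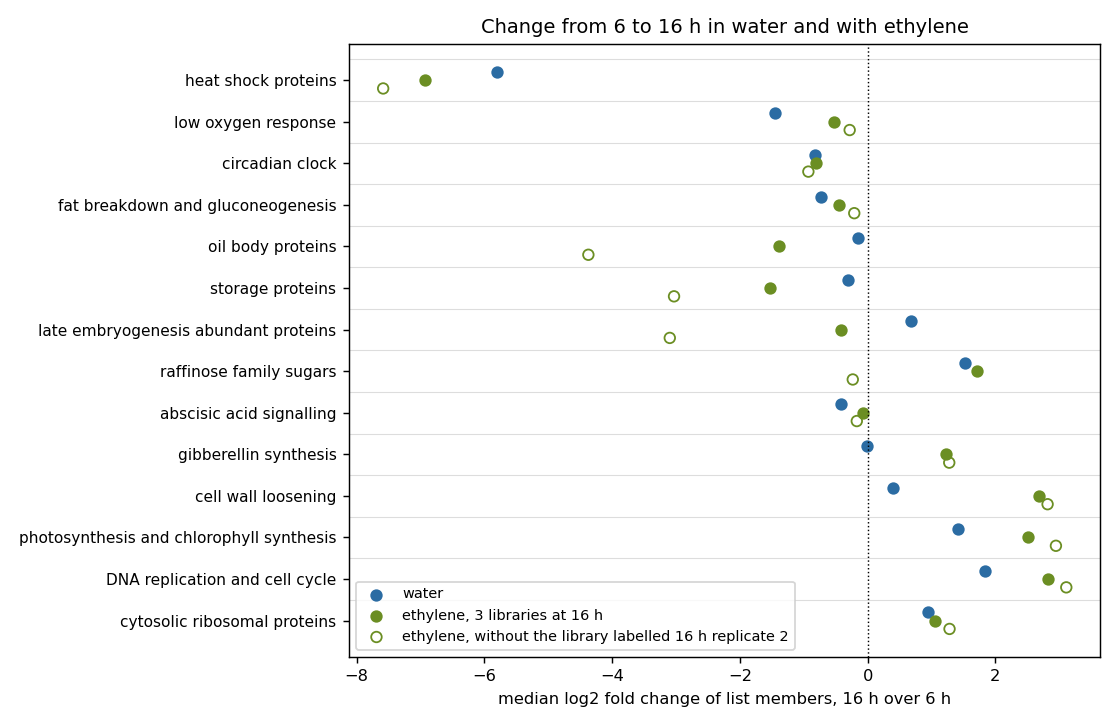
Median log2 fold change of 16 h over 6 h (x axis) for 14 gene lists, in water (filled blue), with ethylene using all libraries (filled green) and with ethylene without the library labelled 16 h replicate 2 (open green). Heat shock medians are far below 0 under both treatments; LEA medians are 0.69 in water, and -0.42 with ethylene with that library and -3.10 without it.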

How the data were processed

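Gene read counts were deposited by the authors, 1 file per library. Per the submitters' processing notes STAR was used with the TAIR10 genome; its version is not given in the sources used here. Per the file headers and columns, each file held unstranded, forward and reverse counts for 37336 genes; the reverse column was used, since 3.48 to 4.14% of stranded counts fell on the forward column. Per the labels' protocols libraries were stranded and poly(A)-selected. Summary lines were left out: unmapped reads were 0.325 to 0.436% of a library, multimapping 1.46 to 1.85%, no feature 1.67 to 1.86% and ambiguous 0.136 to 0.146%. Copies of near-identical genes share reads, so their split is uncertain.

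Genes were kept with edgeR 4.0.16 (R 4.3.3) at a minimum count of 10 and a total of 15. The 12 dry and water libraries were scaled by TMM and fitted together, and 16 h was tested against 6 h by the quasi-likelihood test at an adjusted p of 0.05 (Benjamini-Hochberg). The biological coefficient of variation was 0.0509. The change in water against that with ethylene was fitted on 18 libraries, where it was 0.187, or 0.0436 without the library labelled ethylene 16 h replicate 2. DESeq2 1.42.0, other scalings, filters, sample sets and leave-outs were alternatives. The fit was tested on simulated data with few changed genes and a small spread. Scaling under broad changes and the wider spread of the 18 libraries were therefore not tested. A fold against a group at 0 used a floor of 3 counts over the group; such bounds and counting intervals (95%) cover counting error only, and reads are not independent molecules. Genes named were the 15 with the largest change each way among those with groups that did not overlap and a gene symbol. They also needed a mean of 1 or more in log2 CPM over the 12 dry and water libraries. PYL12 and BGLU22 reached that mean through dry seeds (72.9 CPM) and 24 h (10.5 CPM) respectively. Added to these were up to 4 called members per list and 13 set genes. Other list members, named beside these to describe a list, and the endoplasmic reticulum body and heat shock families were chosen after their values were seen. The members and lists were chosen with earlier results of these data known. Symbols came from a RefSeq table (TAIR10.1), which matched 37051 IDs. Promoter windows were read from the TAIR10.1 genome at RefSeq starts; the count files hold no coordinates.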

Additional observations from a re-analysis of the deposited data

Results flagged for a closer look

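The change from 6 to 16 h differed between water and ethylene for 86 of 18806 genes by the test of that difference (edgeR quasi-likelihood test, Benjamini-Hochberg adjustment). It differed for 11652 genes without the library labelled ethylene 16 h replicate 2. What sets that library apart was not tested.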

How the results depend on the processing

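The counts of genes higher and lower at 16 h stayed within 1.5 times under every alternative run, with 6620 to 8284 higher and 5921 to 7153 lower. Leaving out 1 library of the 6 in turn gave 7008 to 7112 higher and 6680 to 6823 lower genes. Same-numbered libraries did not deviate together (correlations of -0.000347, -0.00501 and -0.0211), and the replicate block gave 7237 higher and 6908 lower genes. Upper quartile scaling ended the calls of CLO1 (-0.07) and PIF1 (-0.10). The comparison with ethylene moved most, from 86 genes to 1677 with DESeq2, 6 with only the 12 libraries of 6 and 16 h, and 45 with the replicate block. Leaving out 1 library in turn gave 26 to 11665 genes, the highest without ethylene 16 h replicate 2 and at most 47 without any other. The difference for ABI3 changed sign, at -0.0045 without ethylene 16 h replicate 3, and over all leave-outs it ran from there to 0.53. The cause was not tested. Depth limits genes with few reads in a group. With 1 library fewer in a group at 0, the floor of 3 counts covers fewer reads, so that the bound fell to 31.4-fold for ACS4, 8.40-fold for PYL12 and 4.95-fold for CYCD3;1.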
